A study of Mus musculus with 8 samples.

Results

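The genes described here are 8 transcription factor genes of the AP-1 group, Fos, Fosb, Fosl2, Jun, Junb, Jund, Batf and Mafk, measured in B cells on their way into the germinal center. They were chosen by name with their expression in these same libraries already known, so every difference between the groups below is a description of how they were chosen and carries no test. All 8 were found among 24259 gene symbols, and 7 of them were among the 12744 genes with enough counts to be tested. Transcriptomes came from 8 libraries of about 200 cells each, sorted as NP+IgDlowB220+ pre-GC B cells from C57BL/6 mouse lymph nodes 3 days after immunization with the hapten NP coupled to ovalbumin. In the HET group (4 libraries) help came from CD4-CrexBcl6fl/+ OT-II T cells, which carried 1 floxed allele of Bcl6, and in the WT group (4 libraries) it came from CD4-Cre OT-II T cells with both alleles intact. The recipients of both groups were CD45.1 Sap-/- mice, whose own T cells lack the adaptor SAP and support germinal centers poorly, and both received NP-OVA with LPS in alum. The Cre and the floxed allele were in the transferred OT-II T cells, whereas the sequenced B cells were those of the Sap-/- recipients. These B cells carried no Bcl6 deletion, and no targeted gene was there to check the group names. Cells of several recipients were pooled within a group before sorting, so the 4 libraries of a group are repeats of 1 pool. The spread between them is that of sorting and library preparation, and the group and the pool cannot be told apart. The ages of the animals are not given in the sources used here.

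AP-1 proteins are basic leucine zipper factors that bind DNA only as dimers. FOS proteins do not pair with each other and need a JUN partner, JUN proteins can pair among themselves, and the FOS-JUN dimer binds the palindrome TGANTCA. FOS and JUN genes are classic immediate early genes. Their transcription is switched on within minutes of signaling through the antigen receptor or CD40 without new protein synthesis, and their mRNAs are short-lived. BATF also pairs with JUN proteins but has no activation domain of its own. In lymphocytes it binds composite sites together with IRF4 or IRF8, and in B cells it is needed for class switching. MAFK is a small MAF protein without an activation domain, which pairs with itself or with partners such as BACH2 and NFE2L2.

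Total counts ranged from 6652386 (HET 3) to 12559189 (HET 1), and 3 counts, used here as the detection floor, corresponded to between 0.241 and 0.455 CPM. CPM, the count relative to the library's total, was used after scaling of library sizes. The 10 B cell markers examined summed to at least 27852 CPM in each library, and none of them was at 0. HET 1 stood apart in genes of antibody-secreting cells, with 1576 CPM of Jchain, the joining chain of secreted antibodies, where no other HET library had more than 97.05 CPM. WT 2 held 399 CPM of Lyz2, a macrophage gene, and no other WT library held more than 28.5 CPM.

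The promoters of Fos, Jun, Junb and Batf are shown because these genes gave the clearest group differences, the first 3 with lower values in HET and Batf with higher values. Each sequence runs from 250 bases before to 50 bases after the RefSeq start on GRCm38.p6, in the direction of transcription. Capitals mark matches on either strand to the motifs searched.
Fos, chr12:85473640-85473939, plus strand: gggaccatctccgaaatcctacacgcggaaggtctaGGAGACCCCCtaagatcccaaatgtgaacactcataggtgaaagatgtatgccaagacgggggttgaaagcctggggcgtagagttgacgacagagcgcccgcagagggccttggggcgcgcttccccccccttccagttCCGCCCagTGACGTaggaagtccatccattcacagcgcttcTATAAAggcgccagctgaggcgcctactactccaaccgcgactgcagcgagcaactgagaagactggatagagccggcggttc
Jun, chr4:95052173-95052472, minus strand: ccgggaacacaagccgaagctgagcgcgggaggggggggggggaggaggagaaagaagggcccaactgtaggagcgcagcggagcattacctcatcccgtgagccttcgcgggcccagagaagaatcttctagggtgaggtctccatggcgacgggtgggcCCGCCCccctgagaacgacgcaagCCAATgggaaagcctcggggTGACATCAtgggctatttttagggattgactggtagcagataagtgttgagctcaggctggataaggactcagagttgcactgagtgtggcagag
Junb, chr8:84978699-84978998, minus strand: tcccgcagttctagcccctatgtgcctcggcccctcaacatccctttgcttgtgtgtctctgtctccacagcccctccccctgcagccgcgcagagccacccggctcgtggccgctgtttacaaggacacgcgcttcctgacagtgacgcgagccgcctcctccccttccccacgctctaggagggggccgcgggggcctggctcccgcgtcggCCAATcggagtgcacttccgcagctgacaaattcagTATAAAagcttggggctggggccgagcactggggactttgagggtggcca
Batf, chr12:85686470-85686769, plus strand: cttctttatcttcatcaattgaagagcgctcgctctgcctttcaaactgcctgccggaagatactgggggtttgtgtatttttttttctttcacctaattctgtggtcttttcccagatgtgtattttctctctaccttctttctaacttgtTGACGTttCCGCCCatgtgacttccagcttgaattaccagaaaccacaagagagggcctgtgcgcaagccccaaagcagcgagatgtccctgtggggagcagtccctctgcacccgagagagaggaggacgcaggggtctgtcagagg

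Positions in these promoters are counted from the start, with the first transcribed base as 1. The Fos promoter held a cyclic AMP response element core (TGACGT), the kind of site bound by CREB, at -66 and a TATA box (TATAAA) at -33. Batf held the same core at -98, and no other of the 8 promoters did. Among all 32851 promoters of this length, 7.51% held TGACGT on either strand. The full palindrome TGACGTCA, which contains that core, was in 1.79% of promoters and in none of the 8. Jun held TGACATCA, the variant of the AP-1 site known to be bound by JUN with ATF2, at -45 and a CCAAT box (CCAAT) at -65. This variant was in 3.62% of all promoters and in no other member. Junb held a CCAAT box at -36 and a TATAAA beginning at its RefSeq start, which lies upstream of its GENCODE start. CCAAT was in 37.4% and TATAAA in 13.6% of all promoters. The AP-1 palindrome TGANTCA itself was in 7.81% of promoters and in none of the 8, and the CArG box bound by SRF was in 1.63% and in none of the 8. An NF-kB site was in 4.51% of promoters and in those of Fos, Fosb and Fosl2. GC boxes (GGGCGG), found in 35.7% of promoters, were in 6 of the 8, all but Junb and Jund. These are letter matches within short windows, and the libraries hold no measurement of binding. The RefSeq start of Jund lies upstream of its GENCODE start and that of Fosl2 downstream, so their windows may not hold the promoter in use. The starts of Batf, Fosb, Junb and Mafk differed by less.

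Fos was the member with the largest difference in level between the groups. The gene lies on chromosome 12, 85473890 to 85477273 on the plus strand of GRCm38, with up to 4 exons. In HET it stood at 76.4, 95.0, 114 and 90.2 CPM in libraries 1 to 4, and in WT at 320, 233, 226 and 230 CPM. The groups did not overlap, and the lowest WT library was far above the highest HET library. WT 1 was higher than the other WT libraries, which lay close together. Means and SDs were 93.8 ± 15.4 CPM for HET and 252 ± 45.2 CPM for WT (n = 4 each), a 2.69-fold higher mean in WT. The log2 difference fitted by edgeR was -1.43 with an SE of 0.15, and without WT 1 it was -1.30.

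Fosb, a second FOS gene (chromosome 7, 19302696 to 19310051, minus strand), was much scarcer. It stood at 4.82, 1.04, 7.19 and 3.34 CPM in HET and at 20.9, 2.95, 7.95 and 6.99 CPM in WT. The groups overlapped, since WT 2 was below 3 of the HET libraries. WT 1, the library with the most Fos, also had the most Fosb. The log2 difference was -1.24 with an SE of 0.63, and leaving out WT 1 alone brought it to -0.54.

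Fosl2, which encodes FRA2 (chromosome 5, 32135801 to 32157842, plus strand), was at the limit of detection and did not pass the filter on low counts. It had 32, 32, 2 and 0 counts in HET and 0, 0, 12 and 2 counts in WT. HET 1, HET 2 and WT 3 were therefore the libraries above the floor of 3 counts, while HET 4, WT 1 and WT 2 had no count. Such a pattern over libraries of about 200 cells gives no ground for a difference between the groups, and no fold is given.

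**Figure D1:**
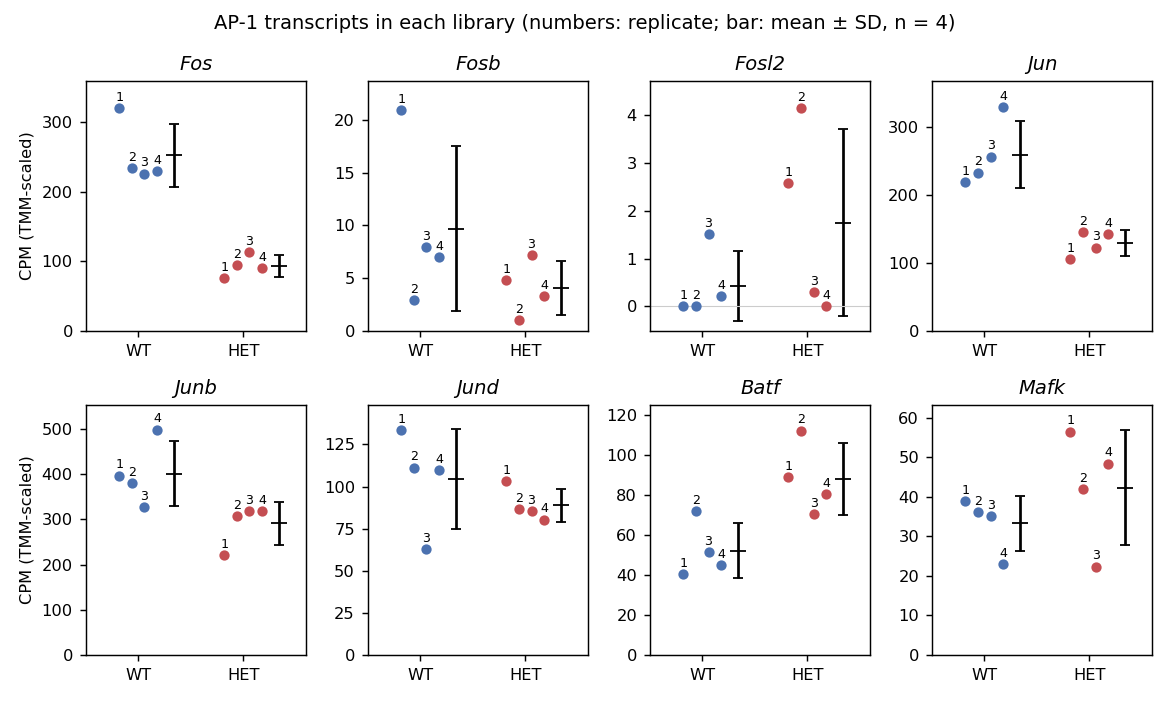
Level of each of the 8 AP-1 transcripts (CPM, linear axis from 0, except that the Fosl2 axis extends below 0 to hold its error bar) in the 4 WT and 4 HET libraries. Points are libraries with their replicate number, and bars give the mean ± SD. For Fos, Jun and Junb the HET points lie below all WT points, while Batf and Mafk have higher means in HET with overlapping groups.

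Jun, the partner of FOS (chromosome 4, 95049034 to 95052222, minus strand, a single exon), was also lower in HET. Its values were 106, 146, 123 and 143 CPM in HET and 219, 233, 256 and 329 CPM in WT. The groups did not overlap, with WT 4 the highest library and HET 1 the lowest. HET averaged 129 ± 18.9 CPM and WT 259 ± 48.9 CPM (SD, n = 4 each), a 2.004-fold higher mean in WT, and the log2 difference was -1.004 with an SE of 0.14.

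Junb (chromosome 8, 84974484 to 84978718, minus strand), whose protein is a weaker activator than JUN and can restrain it, was the most abundant member per length in each library. It stood at 221, 307, 318 and 318 CPM in HET and at 397, 380, 328 and 499 CPM in WT. Here the groups touched closely without overlapping, since the lowest WT library, WT 3, was just above HET 3 and HET 4. HET 1 was well below the other HET libraries. The log2 difference was -0.46 with an SE of 0.14, and it was -0.35 without HET 1.

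Jund (chromosome 8, 70698949 to 70700616, plus strand, a single exon) encodes the JUN protein that is usually present in resting cells and is not a typical early response gene. Its values were 103, 86.4, 85.4 and 80.4 CPM in HET and 134, 111, 63.0 and 110 CPM in WT. The groups overlapped because WT 3 was the lowest of all 8 libraries, whereas the other WT libraries were above each HET library. The log2 difference of -0.23 was close to its SE of 0.19. It was -0.40 without WT 3 and -0.094 without WT 1.

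Batf differed in the opposite direction. The gene (chromosome 12, 85686669 to 85709087, plus strand, up to 3 exons) stood at 88.9, 112, 70.4 and 80.5 CPM in HET and at 40.4, 71.8, 51.2 and 44.99 CPM in WT. A single pair of libraries made the groups overlap, WT 2 being slightly above HET 3. HET averaged 88.0 ± 17.8 CPM and WT 52.1 ± 13.9 CPM (SD, n = 4 each), a 1.69-fold higher mean in HET. The log2 difference was 0.76 with an SE of 0.20, and it was 0.95 without WT 2 and 0.85 without HET 3. Each of these omissions left the groups without overlap.

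Mafk (chromosome 5, 139791513 to 139802653, plus strand) stood at 56.5, 42.0, 22.3 and 48.4 CPM in HET and at 38.9, 36.1, 35.2 and 23.1 CPM in WT. HET 3 was the lowest library of all, and the other HET libraries were above each WT library. The log2 difference was 0.35 with an SE of 0.27. It was 0.56 without HET 3 but 0.18 without HET 1 and 0.21 without WT 4, so single libraries moved it by more than 1.5 times.

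**Figure D2:**
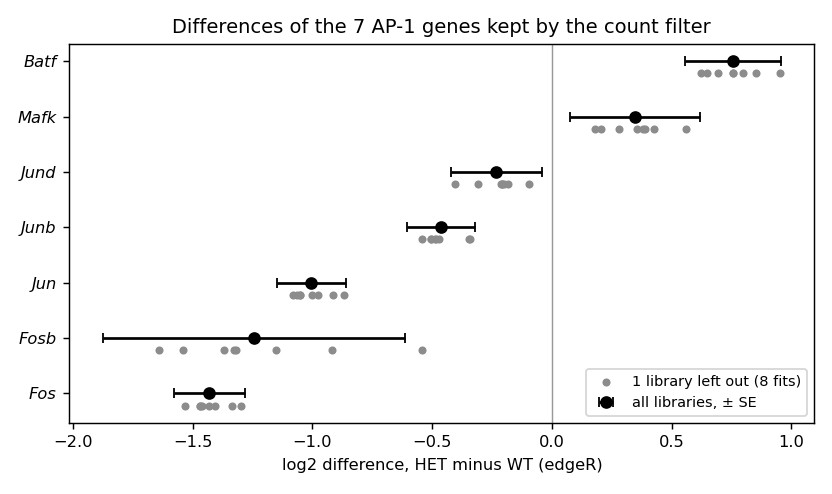
Log2 difference between HET and WT (negative: lower in HET) of the 7 AP-1 genes kept by the count filter, with black points and bars for the fit to all libraries ± SE and gray points for the 8 fits that each left out 1 library. Each gene keeps its side of 0 in each fit, and the gray points of Fosb spread from -1.64 to -0.54.

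Across the 7 tested members, 5 had lower and 2 higher fitted values in HET, with a median log2 difference of -0.46 against -0.0014 over all 12744 genes. The groups did not overlap for 3 members, Fos, Jun and Junb, each lower in HET, and for no member higher in HET. Over all tested genes, 2.62% did not overlap with HET lower and 1.99% with HET higher. Since this contrast was used to choose the members, nothing is read from their count. Omission of WT 3 added Jund to the members that did not overlap with HET lower. Omission of HET 3 gave 2 members with HET higher (Batf and Mafk), and omission of WT 2 gave 1 (Batf). In bulk libraries of pooled cells, fewer cells with a transcript and less of it per cell cannot be told apart.

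The mix of members was described on a scale per length, since levels of different genes can only be compared in that way. The deposited TPM values turned out to divide counts by gene spans that include introns, which lowers intron-rich genes such as Batf (11476 bases used, against 1406 bases of exon) relative to Fos (1837 bases used, against 2352 bases of exon). Exon-length TPM, computed from the counts and GENCODE exon lengths, was therefore used for comparisons between genes. On this scale the order in WT was Junb (383 ± 63.3, SD, n = 4), Fos (236 ± 38.3), Jun (179 ± 34.2), Jund (137 ± 36.3), Batf (81.8 ± 21.9), Mafk (18.8 ± 3.97), Fosb (3.41 ± 2.67) and Fosl2 (0.101 ± 0.173). In WT the ranges of Fos and Jun, of Jun and Jund and of Jund and Batf overlapped, whereas Junb was above and Mafk below these in each library.

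The order in HET was Junb (273 ± 51.8 exon-length TPM, SD, n = 4), Batf (135 ± 28.1), Jund (114 ± 8.75), Jun (87.6 ± 15.1), Fos (86.1 ± 16.3), Mafk (23.2 ± 7.51), Fosb (1.41 ± 0.898) and Fosl2 (0.387 ± 0.440). Batf moved from the fifth to the second place and Fos from the second to the fifth. In HET the ranges of Batf and Jund, of Jund and Fos, of Jun and Fos and of Fosb and Fosl2 overlapped, and Junb was again above the rest in each library. Summed over the 8 members, exon-length TPM came to 721 ± 75.1 for HET and 1040 ± 92.4 for WT (SD, n = 4 each). Of this sum, Junb took 37.7% in HET and 36.7% in WT, so its part was much alike while its level was lower. Fos took 11.9% in HET and 22.8% in WT, and Jun took 12.1% and 17.3%, respectively. Batf took 18.7% in HET and 7.97% in WT.

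**Figure D3:**
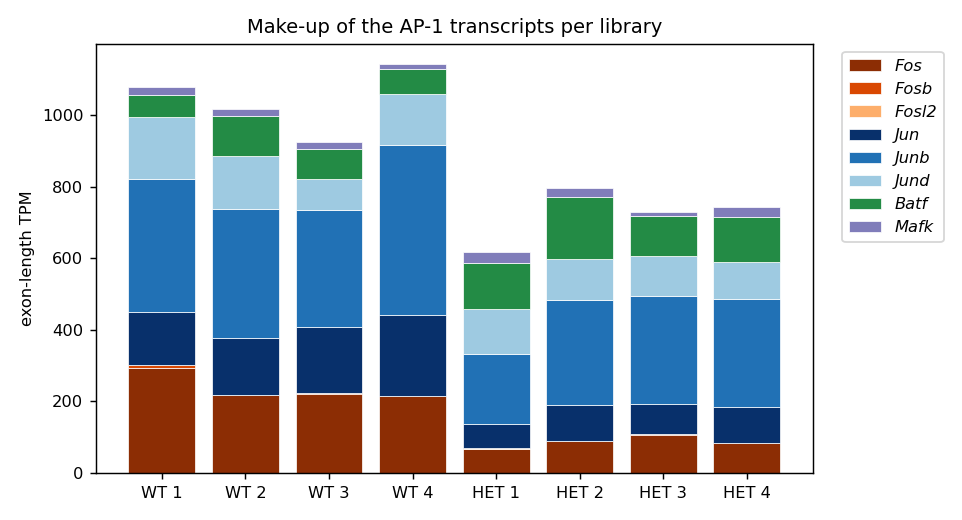
Exon-length TPM of the 8 AP-1 genes stacked for each library, from 0. The whole bar is lower in the 4 HET libraries (617 to 795) than in the 4 WT libraries (925 to 1142), with a thinner Fos segment and a thicker Batf segment in HET.

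Batf and Fos were set side by side in each library, since their proteins compete for JUN partners. In HET 1 to 4 Batf was at 129, 175, 110 and 125 exon-length TPM and Fos at 66.2, 88.5, 106 and 83.8. In WT 1 to 4 Batf was at 62.0, 112, 83.5 and 69.9 and Fos at 294, 217, 220 and 214. The ratio of Batf to Fos was 1.95, 1.98, 1.04 and 1.49 in HET and 0.211, 0.515, 0.379 and 0.327 in WT. Batf thus exceeded Fos in each HET library and in no WT library on this scale, although HET 3 was close to equality. That crossing depends on the length used, because the ratio was 0.619 to 1.18 in HET by CPM and 0.0991 to 0.189 by the deposited TPM. On each of the 3 scales the HET and WT ratios did not overlap.

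**Figure D4:**
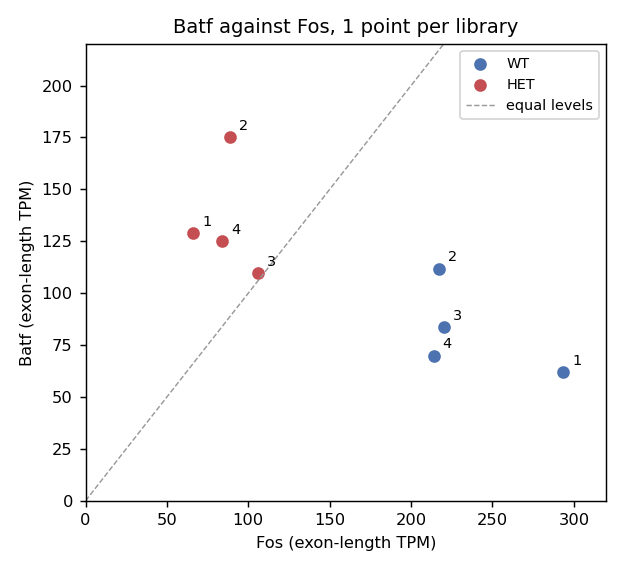
Batf against Fos in exon-length TPM, 1 point per library with its replicate number, both axes linear from 0. The HET points lie above the dashed line of equal levels (ratios 1.04 to 1.98) and the WT points below it (0.211 to 0.515).

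The same comparison was made for the classes, with Fos, Fosb and Fosl2 summed as the FOS class and Jun, Junb and Jund as the JUN class. In exon-length TPM the FOS class relative to the JUN class was 0.185 ± 0.0223 for HET and 0.348 ± 0.0749 for WT (SD, n = 4 each). The ratios were 0.175, 0.177, 0.217 and 0.168 in HET and 0.434, 0.327, 0.374 and 0.257 in WT, so the groups did not overlap and WT 4 came closest to HET. The mean log2 ratio differed by -0.90 between HET and WT in exon-length TPM, by -0.91 in deposited TPM and by -0.81 in CPM. Both classes were lower in HET, and the FOS class was lower by more. That class was nearly all Fos, with mean exon-length TPM of 87.9 in HET and 240 in WT, against 86.1 and 236 for Fos alone. Ratios with the FOS class therefore largely restate the values of Fos. The ratio of Batf to the FOS class differed by 2.19 on the log2 scale in deposited TPM and exon-length TPM and by 2.16 in CPM.

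Fos and Batf are neighbors, with 209 kb between the end of Fos and the start of Batf on the same strand. The count table held 4 genes from Fos to Batf. Jdp2, a repressor of the same family that lies between them, had a mean of 0.389 CPM in HET and 0.130 CPM in WT, with counts in 1 library of each group. The noncoding gene Gm47863 was as scarce. No gene of the table between Fos and Batf was above the count filter.

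Within the groups the members did not vary as a block. After subtraction of group means, Pearson's r of log2 CPM over the 8 libraries was 0.73 for Jun and Junb and 0.50 for Fos and Fosb, but -0.15 for Fos and Jun. It was -0.50 for Fos and Batf and -0.91 for Fosb and Batf. Fosb had as few as 8 counts in a library, and all pairs share the same 8 libraries and scaling. Among 4963 genes outside the members whose log2 CPM averaged 5 or more, those most like Fos after the same subtraction were Coro1a (r = 0.98), Ccdc25 (0.96), Lamtor4 (0.96), Hmgn2 (0.95) and Cd86 (0.95). Genes among those most like Batf were Tars2 (0.94), Ntan1 (0.94), Dph5 (0.93) and Eme2 (0.93). With 8 libraries and this many genes, such values are a description of these libraries.

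Genes around AP-1 were then compared between the groups with edgeR over all tested genes, where 3 genes (0.0235%) passed the adjusted threshold with HET lower and none (0%) with HET higher. At an unadjusted p under 0.05, 494 genes (3.88%) were lower and 426 (3.34%) higher. DESeq2 called 77 of 6068 genes with an adjusted p (1.27%).

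Of 13 other AP-1 family genes, 10 were in the table and 6 were tested. None of the 6 passed in edgeR, also unadjusted, and neither did the 2 to which DESeq2 gave an adjusted p (Atf2 and Atf7). They were Batf2 (3.27 CPM in HET and 3.89 in WT), Atf2 (44.1 and 46.3), Atf7 (30.04 and 27.6), Maf (1.83 and 2.33), Maff (1.21 and 1.74) and Mafg (18.4 and 18.9), with a median log2 difference of -0.16. Mafg, which encodes a small MAF protein like MAFK, and Atf2 and Atf7, whose proteins pair with JUN, had adjusted p of 0.989, 0.961 and 0.958 in edgeR. Fosl1, Batf3, Atf3 and Jdp2 were below the count filter.

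Among 11 tested DNA-binding partners 1 was higher and 10 lower in HET, with a median of -0.10, and 0 passed in edgeR or, among the 9 with an adjusted p there, in DESeq2. At an unadjusted p under 0.05 there were 4, each with HET lower (Ets1, Bach1, Nfe2l1 and Bach2), against 3.88% of all genes. Ets1, which binds next to AP-1 at many lymphocyte enhancers, averaged 364 ± 22.1 CPM for HET and 437 ± 37.1 CPM for WT (SD, n = 4 each), with no overlap (log2 difference -0.26, edgeR adjusted p = 0.569, range 0.185 to 0.802 over 15 alternatives). Bach1, a repressor that pairs with small MAF proteins, stood at 1.51 and 4.83 CPM (adjusted p = 0.587 in edgeR). Irf4 and Irf8, the partners of BATF, had adjusted p of 0.918 and 0.945 in edgeR.

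The kinases upstream of AP-1 were split in direction. Of 19 tested genes of the MAP kinase cascade 12 had higher and 7 had lower values in HET (median log2 difference 0.069), and 0 were past the adjusted threshold. Hras (12.98 CPM in HET and 5.58 in WT, edgeR adjusted p = 0.576) and Braf (14.8 and 23.5, adjusted p = 0.621) had the lowest p. Of 13 factors that act at early gene promoters 9 were lower and 4 higher, again with 0 past the adjusted threshold. Crtc2, a coactivator of CREB, stood at 84.0, 65.8, 78.4 and 82.2 CPM in HET and 115, 100.5, 104 and 101 CPM in WT. Each HET library lay below each WT library (log2 difference -0.44 with an SE of 0.13, edgeR adjusted p = 0.445, range 0.0849 to 0.745 over 15 alternatives). Mrtfb, a cofactor of SRF, had the next lowest p (12.3 and 21.02 CPM, edgeR adjusted p = 0.629).

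Among 7 turnover factors 3 were higher and 4 lower in HET (median -0.18). Zfp36 encodes tristetraprolin, which binds AU-rich early mRNAs and speeds their decay, and is itself an early response gene. It stood at 543, 421, 534 and 458 CPM in HET and at 635, 674, 694 and 687 CPM in WT. The groups did not overlap, and the log2 difference was -0.46 with an SE of 0.092. Its adjusted p in edgeR was 0.196, and over 15 alternatives it ranged from 0.00134 to 0.726, passing with DESeq2 and with no filter on low counts. Itch, a ubiquitin ligase for JUN proteins, stood at 44.9 and 64.5 CPM (edgeR adjusted p = 0.576).

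Genes described in textbooks as AP-1 targets were also split, with 4 of 8 tested genes higher and 4 lower (median log2 difference -0.019) and 0 past the adjusted threshold. The lowest p were those of Spp1 (1.04 and 6.12 CPM) and Ccnd1 (7.49 and 1.48 CPM), in opposite directions and at low levels. Of 7 tested antioxidant and iron genes bound by small MAF dimers 3 were higher and 4 lower, with a median of -0.022. Prdx1, a peroxiredoxin, was at 500.5 CPM in HET and 419 CPM in WT without overlap (edgeR adjusted p = 0.554), and Txnrd1 had the next lowest p (53.1 and 42.4 CPM, edgeR adjusted p = 0.806).

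**Figure D5:**
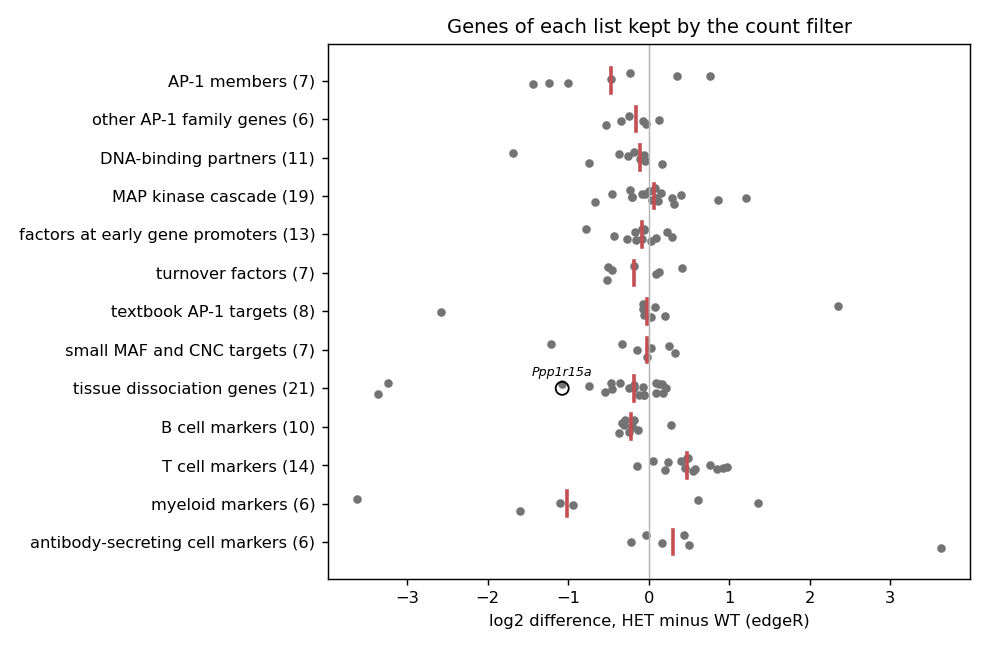
Log2 difference between HET and WT (negative: lower in HET) of each gene kept by the count filter, by list, with the number of genes in brackets. Gray points are genes with vertical jitter for legibility, red bars are list medians, the gray line is the median of all genes, and the ring marks Ppp1r15a, which passed the adjusted threshold. Rings were not drawn for the AP-1 members (median -0.46), which were chosen with this contrast known and are not to be weighed against the other lists.

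Early genes are also induced while tissue is dissociated, and 21 tested genes of that kind, with the members left out, were examined beside Fos and Jun. Of these 6 were higher and 15 lower in HET, with a median of -0.18 and 8 at an unadjusted p under 0.05, each with HET lower (3.88% of all genes). The groups did not overlap for 6 of the 21, again with HET lower (2.62% of all genes). DESeq2 called 5 of the 19 with an adjusted p (1.27% over all genes with one). Ppp1r15a (GADD34), a stress gene that restores protein synthesis, fell from 138 ± 13.6 CPM (SD, n = 4) in WT to 65.5 ± 14.1 CPM (SD, n = 4) in HET (log2 difference -1.07 with an SE of 0.16, edgeR adjusted p = 0.0411). The call held in 5 of 15 alternatives and in none of the 8 that left out a library, where the adjusted p in edgeR was 0.0558 to 0.199. The heat shock genes Hspa1a and Hspa1b, near-identical copies whose reads may be split between them, stood at 13.03 and 1.01 CPM in HET and at 135 and 9.60 CPM in WT (edgeR adjusted p = 0.414 and 0.233). Dusp1, a phosphatase that switches off MAP kinases, stood at 52.2 and 86.8 CPM (edgeR adjusted p = 0.328). Hspa1a, Hspa1b and Dusp1 were among the genes without overlap, named after their values were seen. Each passed the adjusted threshold in 1 of the alternatives.

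The early genes Egr1, Ier2, Nr4a1 and Btg2 of that list did not share the pattern of Fos. Egr1 averaged 49.9 ± 17.9 CPM for HET and 54.1 ± 16.96 CPM for WT (SD, n = 4 each), and its groups overlapped (edgeR adjusted p = 0.958). Ier2 (145 and 165 CPM), Nr4a1 (52.4 and 54.6 CPM) and Btg2 (343 and 359 CPM) overlapped as well, with adjusted p in edgeR of 0.880, 0.986 and 0.931. These 4 were also named after their values were seen, from a list with 15 of 21 tested genes lower in HET. Zfp36, the early response gene described above, was lower in HET without overlap. The summed level of the whole list was 6518 to 8331 CPM in HET and 7262 to 8029 CPM in WT. The part of tissue processing in the values of Fos and Jun was not tested.

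Markers of cell types were summed in the same way. For 10 B cell markers 9 were lower in HET, with a median of -0.23. Of these, 8 had an unadjusted p under 0.05 in edgeR (3.88% of all genes with HET lower). The groups did not overlap for 6 (2.62% of all genes with HET lower). Cd74 (11197 and 14139 CPM, edgeR adjusted p = 0.0770) and Cd22 (725 and 937 CPM, edgeR adjusted p = 0.220) had the lowest p. DESeq2 called 3 of the 10 (1.27% over all genes with an adjusted p), Cd74, Cd22 and Ptprc (adjusted p = 0.00144, 0.00467 and 0.0493). Cd74 passed in 4 of 15 alternatives (adjusted p from 0.000333 to 0.726), among them the edgeR fit without WT 2, where its adjusted p was 0.00800. Their sum was 27852 to 37388 CPM in HET and 31986 to 35174 CPM in WT. T cell markers, of interest because activated T cells express Batf and Fos, summed to 507 to 787 CPM in HET and 464 to 711 CPM in WT. Of 14 tested T cell markers 13 were higher in HET, with a median of 0.48, and 0 passed, also unadjusted. Thy1 (15.6 and 9.18 CPM) and Cd3d (35.7 and 18.8 CPM) had the lowest p, with adjusted p in edgeR of 0.795 and 0.796. The 6 tested myeloid markers had a median of -1.02 and summed levels of 34.3 to 104 CPM in HET and 40.01 to 432 CPM in WT, with the lowest p for Mpeg1 (25.02 and 9.79 CPM) and Csf1r (7.48 and 14.3 CPM). Those of antibody-secreting cells, with sums of 288 to 2098 CPM in HET and 260 to 488 CPM in WT, were 4 higher and 2 lower (median 0.30) and had the lowest p for Mzb1 (36.3 and 25.7 CPM) and Jchain (427 and 34.4 CPM, the HET mean resting on HET 1 at 1576 CPM). No marker was at 0 in all libraries, and the part of other cells in the values of the AP-1 genes was not tested. Without HET 1 the log2 differences of Fos, Jun and Batf were -1.34, -0.91 and 0.76, and without WT 2 they were -1.46, -1.05 and 0.95.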

How the data were processed

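Libraries were made with SMART-Seq2 adapted to about 200 cells. The authors aligned reads to GRCm38 with HISAT2 2.2.1 (version per the labels) and counted them per gene with HTSeq. The annotation and strand setting are not given in the sources used here, so reads of overlapping or antisense genes cannot be told apart. The deposited counts are whole numbers for 24259 symbols. The deposited TPM values cover 24232 symbols, and for 98.1% of 23530 symbols with a GENCODE M21 model the length behind them matched the mean transcript span with introns within 1.40%. Exon-length TPM, added after seeing the data, divides counts by GENCODE M21 exon lengths.

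Counts were analyzed in R 4.3.3 with edgeR 4.0.16 (filterByExpr, TMM, robust quasi-likelihood F-test, Benjamini-Hochberg adjustment over all 12744 genes tested, threshold 0.05). SEs are the log2 difference divided by the square root of F. Scripts were tested on simulated data. SMART-Seq2 has no molecular identifiers, so floors cover counting error only, and p-values measure the spread between repeats of 1 pool. The members and gene lists were chosen with earlier results of these data known. Named in each list were genes past the threshold, otherwise the 2 with the lowest p, and all tested genes of the AP-1 family. Also named were, for Fos and Batf, the 5 genes with the highest within-group r, of which 1 is not reported here. Alternatives were DESeq2 1.42.0, no filter, RLE size factors, a replicate block, genes averaging 50 counts or more, limma-trend (limma 3.58.1) on log2(TPM + 1), immunoglobulin genes left out, and omission of each library. Promoters are RefSeq sequences on GRCm38.p6, which held all 8 members.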

Additional observations from a re-analysis of the deposited data

Results flagged for a closer look

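In 3 of 20 sets of 4 values examined, the highest or the lowest library stood apart from its nearest neighbor. The gap was a larger portion of the range than Dixon's limit allows. For Fos the library was WT 1, at 320 CPM, with the remaining WT libraries at 226 to 233 CPM and a gap of 0.921 of the range. For Junb it was HET 1, at 221 CPM, with the remaining HET libraries at 307 to 318 CPM and a gap of 0.887. For Fosl2 it was WT 3, at 1.51 CPM, with the remaining WT libraries at 0 to 0.209 CPM and a gap of 0.862, which rests on 12 counts against at most 2. In independent, normally distributed sets, chance would flag about 1 of 20. These sets share libraries and scaling, so 3 is not weighed against that number.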

How the results depend on the processing

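The log2 difference of each of the 7 tested members kept its sign in all 15 alternatives and moved by less than the spread between libraries, with ranges of -1.53 to -1.30 for Fos, -1.08 to -0.87 for Jun, -0.54 to -0.34 for Junb, -0.40 to -0.094 for Jund, -1.64 to -0.54 for Fosb, 0.62 to 0.95 for Batf and 0.18 to 0.56 for Mafk. Their median kept its sign as well (-0.54 to -0.34). The class ratios, recomputed without each library and in the other units, kept their direction there. The count of genes called over all genes, 3 in edgeR, was 77 with DESeq2, 38 with no filter on low counts, 7 with a mean of at least 50 counts, 0 with limma-trend on log2(TPM + 1) and 1 to 6 when a library was left out (6 without WT 1 and 1 without HET 1, HET 2, HET 3, HET 4 or WT 3). The count of genes called in the 7 lists of related genes (dissociation genes and cell type markers not included), 0 in edgeR, was 1 with DESeq2 and 1 with no filter, both times Zfp36. The causes were not tested. With the replicate block 0 genes were called, but same-numbered libraries did not vary together (r of -0.048 to 0.019), so the numbers give no pairing. Depth limits Fosl2, Fosb and the genes under the count filter, whose values rest on few counts.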
